A study of Homo sapiens with 2 samples.

Results

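The NF-kB system was followed through 10 genes: the subunit genes NFKB1, NFKB2, RELA and RELB, and 6 genes that NF-kB is known to induce, of which NFKBIA, TNFAIP3, TRAF1 and BIRC3 act back on the pathway and TNFAIP2 and ICAM1 are common readouts of it. A gene was taken from the probe set annotated to its symbol alone, and by that rule 9 of the 10 were found, out of 22411 genes measured by such probe sets. BIRC3 was not analysed here, as no probe set named it in the annotation used. All RNA came from MDA-MB-231, an established line derived from a human triple-negative breast tumour. Cells carrying the pLKO.1-shSREBP vector, a stable short hairpin against SREBP1 (labelled SREBP1 KD), were set against controls with the pLKO.1 vector. The title of the control array names it shNC. Both were grown in high-glucose DMEM with serum. SREBP1 is a transcription factor of lipid synthesis. Each derivative was represented by 1 array, and the labels do not say whether it is a clone or a pool, nor how many hairpins or cultures were used.

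NF-kB proteins act as dimers. In resting cells IkB proteins, chiefly the product of NFKBIA, hold them in the cytoplasm. Signals from cytokine and pattern receptors activate the IKK kinases, which mark IkB for destruction and free dimers such as the RELA and NFKB1 pair to enter the nucleus. A slower branch runs through the kinase MAP3K14, also called NIK, and releases the RELB and NFKB2 pair. The faster branch switches on its own brakes, so that NFKBIA and TNFAIP3 are feedback genes as well as targets. MDA-MB-231 is known for NF-kB activity without added stimulus.

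The values were RMA log2 signals, and every difference below is the log2 signal on the array labelled SREBP1 knockdown minus that on the control array. Each group had 1 array, so that replicate spread was not measured, no test was possible and no p-value was computed. An expression floor of 3.21 log2 units was set from olfactory receptor genes, which this line should not express, and 15684 genes passed it, all 9 measured members among them. The SD of the differences over those 15684 genes was 0.19 log2 units, with a median difference of 0.012. SREBF1, the gene of SREBP1, read 5.29 log2 units on the array labelled SREBP1 knockdown and 5.13 on the control array, a difference of 0.15. The array labelled SREBP1 knockdown thus showed no lower SREBF1 signal, and the directions below follow its label. Of the 12 measured markers of the line, VIM and CD44 read 9.74 and 9.17 on the array labelled SREBP1 knockdown and 9.46 and 9.11 on the control array, and the hormone receptor genes ESR1 and PGR were under the floor on both. The luminal gene GATA3, also listed as low in this line, was above the floor, at 4.84 on the array labelled SREBP1 knockdown and 4.95 on the control array, and the epithelial cadherin gene CDH1 lay close to it, at 3.16 and 3.32.

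On the array labelled SREBP1 knockdown, RNA signals of the 4 subunit genes were slightly higher, while NFKBIA and TNFAIP2 were lower and TNFAIP3, TRAF1 and ICAM1 differed by under 0.1 log2 units. TNFAIP2 was the 1 member beyond 1.5-fold, at 1.53-fold lower. Among all 15684 genes the share lower by at least 1.5-fold was 0.752% and the share higher by that much was 0.383%, a size that no member reached upward. At 2-fold there were 0 members in either direction, where 0.0191% of all genes were higher and 0.115% lower. By sign, 7 of the 9 members were higher and 2 lower, where 52.2% of all genes were higher and 41.2% lower by any amount, and 6 were higher and 3 lower once a signal-dependent curve (lowess) was subtracted. The members' median difference was 0.077 log2 units. Because each array read RNA of a whole culture, fewer cells expressing a gene and less RNA per cell cannot be told apart.

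**Figure D1:**
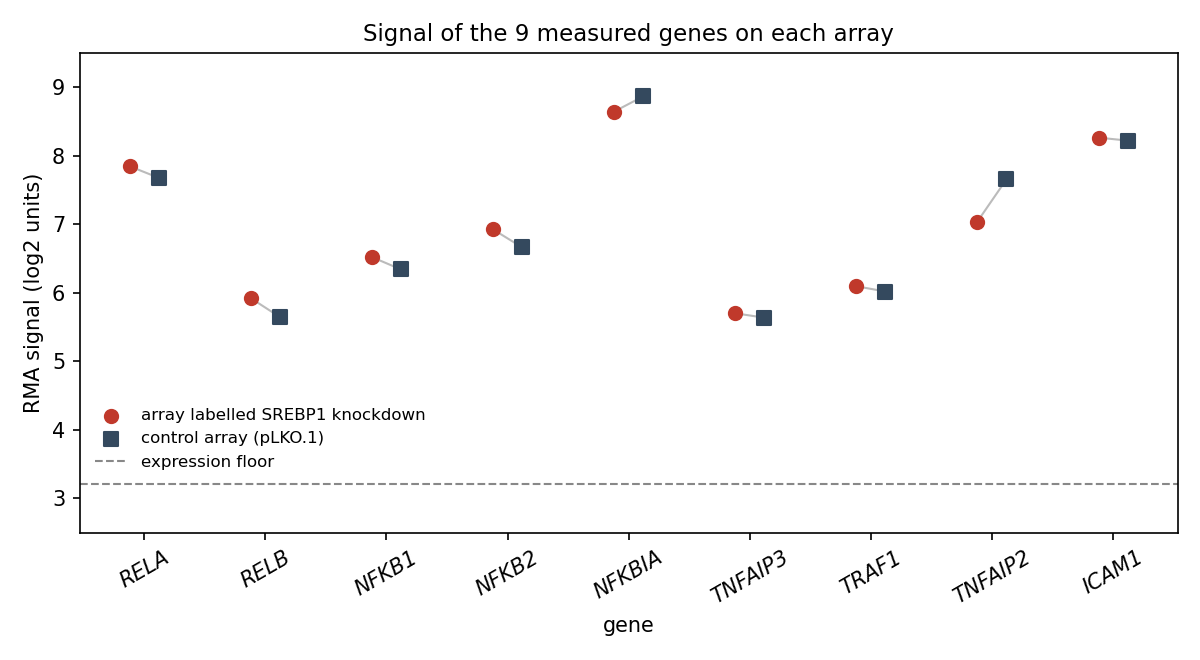
RMA signal (log2 units, vertical axis) of each of the 9 measured genes, with circles for the array labelled SREBP1 knockdown and squares for the control array, 1 array each, so there are no error bars. The circles of RELA, RELB, NFKB1 and NFKB2 lie slightly above their squares, those of NFKBIA and TNFAIP2 lie below, and all signals are above the dashed expression floor of 3.21; heights of different genes are not comparable.

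RELA, the main transactivating subunit, read 7.85 log2 units on the array labelled SREBP1 knockdown and 7.68 on the control array, a difference of 0.17 or 1.12-fold higher. NFKB1, whose precursor protein is cut to the usual partner of RELA, read 6.52 on the array labelled SREBP1 knockdown and 6.34 on the control array, a difference of 0.18 or 1.13-fold higher. These 2 differences were smaller than the SD of the differences of the 500 genes nearest in mean signal, which was 0.19 for RELA and 0.22 for NFKB1. They lay at percentiles 76.2 and 81.8 of those genes.

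The subunits of the slower branch differed a little more. RELB, which pairs with the processed NFKB2 product, read 5.92 on the array labelled SREBP1 knockdown and 5.65 on the control array, a difference of 0.28 or 1.21-fold higher. NFKB2, which encodes both an IkB-like precursor and the mature partner of RELB, read 6.93 on the array labelled SREBP1 knockdown and 6.66 on the control array, a difference of 0.26. Both exceeded the SD of their 500 neighbours in signal, 0.19 for RELB and 0.21 for NFKB2, and lay at percentiles 94.2 and 90.0. At a threshold of 1.2-fold, or 0.263 log2 units, RELB was just inside with 0.275 and NFKB2 just outside with 0.262. RELB was the 1 member at least 1.2-fold higher, against 6.59% of all genes, and TNFAIP2 the 1 member at least 1.2-fold lower, against 6.54%. All 4 subunit genes were also higher after a signal-dependent curve was subtracted, at 0.12 to 0.27 log2 units. The median difference of all genes, 0.012, was too small to change their sign, and subtracting it left 0.16 to 0.26. Differences at least as high as that of RELA were found in 15.8% of all genes and at least as high as that of RELB in 5.78%.

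Among the feedback genes, NFKBIA, which encodes the inhibitor IkB-alpha, went against the subunits. It read 8.64 log2 units on the array labelled SREBP1 knockdown and 8.87 on the control array, a difference of -0.22 or 1.17-fold lower. Its neighbours in signal had an SD of 0.19, and NFKBIA lay at percentile 6.60 among them. After the signal-dependent curve was subtracted its difference was -0.29, beyond 1.2-fold. TNFAIP3, a ubiquitin-editing enzyme that shuts off signalling to IKK, read 5.70 on the array labelled SREBP1 knockdown and 5.64 on the control array, a difference of 0.064. TRAF1, an adaptor of the TNF receptor family, read 6.10 on the array labelled SREBP1 knockdown and 6.02 on the control array, a difference of 0.077. Both differences were smaller than the SD of their neighbours, which was 0.18 for TNFAIP3 and 0.19 for TRAF1, and neither had the sign of NFKBIA.

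TNFAIP2, a TNF-inducible gene known for its part in membrane protrusions, had the difference farthest from 0 of the 9. It read 7.04 log2 units on the array labelled SREBP1 knockdown and 7.66 on the control array, a difference of -0.62. The SD of its neighbours was 0.21 and its percentile among them 0.600, and 0.689% of all genes were at least as low. ICAM1, an adhesion molecule for leukocytes, read 8.27 on the array labelled SREBP1 knockdown and 8.22 on the control array, a difference of 0.043, which turned to -0.015 after the signal-dependent curve was subtracted. The 2 readout genes thus differed unequally: TNFAIP2 was 1.53-fold lower, while ICAM1 was within 0.1 log2 units of its control value. Without TNFAIP2 the median of the remaining 8 members was 0.12.

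**Figure D2:**
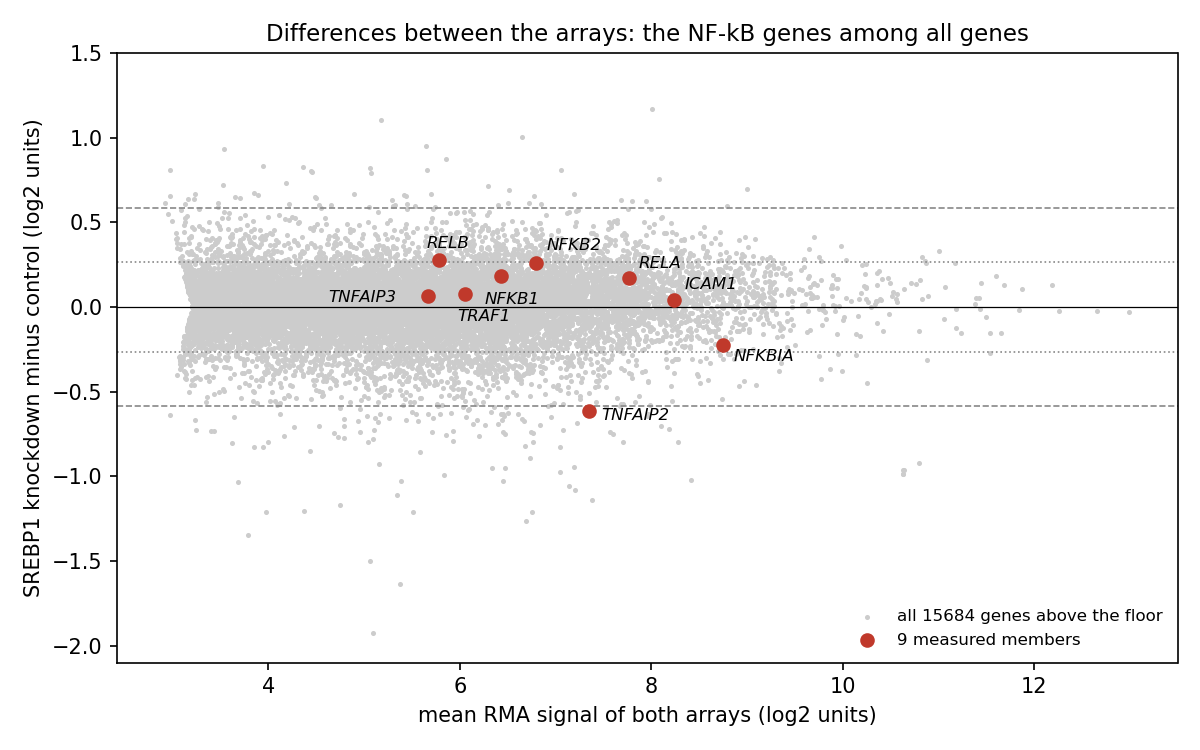
Difference of each gene (SREBP1 knockdown minus control, log2 units, vertical axis) against its mean signal on both arrays (log2 units, horizontal axis), with grey points for all 15684 genes above the floor and red points for the 9 measured members; dotted and dashed lines mark 1.2-fold and 1.5-fold. TNFAIP2 at -0.62 is the red point beyond the dashed line, RELB at 0.28 lies just above the upper dotted line, and the others lie between the dotted lines.

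The start regions of the members show how the genes that differed and those that did not compare in NF-kB-type motifs. RefSeq promoter windows (GRCh38.p14), running from 250 bases before to 50 bases after each annotated start, were found for 9 of the 10 genes, 15 windows in all. RELB was not matched. The kappaB consensus, searched on both strands, was present in 11.3% of all 35116 windows and in 6 of the 15 windows, which belong to 5 members: NFKB1, NFKB2, NFKBIA, TNFAIP3 and BIRC3. A relaxed form of it was present in 32.6% of all windows and in 9 of the 15, of 7 members. The shorter motif GGNNNTTCC, chosen after the sequences were seen, can overlap the other forms. It was present on either strand in 20.1% of all windows and in 10 of the 15, of 8 members. The 250 bases before the start are shown, 5' to 3' on the strand of the gene, for the 2 lower genes, for NFKB1 as a higher subunit and for ICAM1 as the member nearest to 0, with matches to the kappaB consensus or to GGNNNTTCC in capitals.
TNFAIP2 (chr14:103123211-103123460, plus strand): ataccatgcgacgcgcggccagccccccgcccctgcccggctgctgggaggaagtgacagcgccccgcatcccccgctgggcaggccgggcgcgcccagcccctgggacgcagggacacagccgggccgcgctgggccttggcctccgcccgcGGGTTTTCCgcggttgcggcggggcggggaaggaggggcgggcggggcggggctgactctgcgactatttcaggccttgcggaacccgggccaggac
NFKBIA (chr14:35404750-35404999, minus strand): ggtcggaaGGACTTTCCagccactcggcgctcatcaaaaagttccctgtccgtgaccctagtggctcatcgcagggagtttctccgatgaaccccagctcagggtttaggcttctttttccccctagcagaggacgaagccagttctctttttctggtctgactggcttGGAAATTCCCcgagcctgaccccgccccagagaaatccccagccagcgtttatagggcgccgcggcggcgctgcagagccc
NFKB1 (chr4:102501109-102501358, plus strand): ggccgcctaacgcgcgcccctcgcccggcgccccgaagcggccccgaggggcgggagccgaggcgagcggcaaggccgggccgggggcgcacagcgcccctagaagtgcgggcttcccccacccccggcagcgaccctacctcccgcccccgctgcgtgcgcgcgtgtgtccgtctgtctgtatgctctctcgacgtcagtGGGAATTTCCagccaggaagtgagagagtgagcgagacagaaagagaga
ICAM1 (chr19:10270870-10271119, plus strand): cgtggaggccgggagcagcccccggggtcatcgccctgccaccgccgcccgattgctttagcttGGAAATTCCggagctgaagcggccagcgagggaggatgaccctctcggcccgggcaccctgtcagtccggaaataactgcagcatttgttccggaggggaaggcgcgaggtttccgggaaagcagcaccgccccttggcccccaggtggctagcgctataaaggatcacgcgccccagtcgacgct
In TNFAIP2 the capitals mark 1 match to GGNNNTTCC, GGGTTTTCC, and neither the consensus nor its relaxed form was found in the window. NFKBIA, also lower, holds a consensus match on the opposite strand, read here as GGAAATTCCC at bases -81 to -72 from the start, and a GGNNNTTCC match farther out. NFKB1, slightly higher, has 2 annotated starts. Its window shown here holds the consensus match GGGAATTTCC at bases -49 to -40, and its other window holds only a match to the relaxed form. ICAM1 holds GGAAATTCC at bases -186 to -178, which is part of the NFKBIA match letter for letter. NFKB2, with 3 annotated starts, had 4 separate consensus matches over 2 of its windows, among them GGGACTTTCC at bases -21 to -12 of the window farthest downstream. Windows with a consensus match thus belonged to a lower gene (NFKBIA), to higher genes (NFKB1, NFKB2) and to TNFAIP3, whose difference was 0.064. A match describes these letters only and is not evidence of a bound site.

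Around the members, 6 lists of other NF-kB pathway genes held 123 genes, of which 112 had a probe set of their own and 98 were above the floor. None of the 98 was higher by 1.5-fold or more, and 2 were lower by that much, the receptor gene TLR4 and the chemokine gene CCL2, where 0.383% and 0.752% of all genes passed those limits. With the median difference or the lowess curve subtracted, 3 were lower by that much, the third being the macrophage growth factor gene CSF1, picked out with its value known, at -0.58 as deposited. Their median difference was -0.011 log2 units, against 0.012 over all genes above the floor, and it was -0.023 with the median difference subtracted and -0.036 with the curve. The split was 43 higher and 51 lower as deposited, where 52.2% of all genes above the floor were higher and 41.2% lower. With the curve it was 39 higher and 59 lower. The split of all genes was not counted with the curve or the median difference subtracted. The same 2 shares over all genes apply to the splits as deposited of each list below.

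Of the other subunits and IkB proteins, 3 of 6 were higher and 3 lower. NFKBIB, which encodes IkB-beta, was highest, at 6.08 log2 units on the array labelled SREBP1 knockdown and 5.68 on the control array, a difference of 0.40. NFKBIE, which encodes IkB-epsilon and was picked out once its value was known, differed by 0.38. These 2 IkB genes thus differed in the direction opposite to NFKBIA. Of the 6 genes, 2 were higher and 1 lower by at least 1.2-fold, where the shares over all genes were 6.59% and 6.54%. BCL3, a nuclear IkB family member that binds NFKB1 and NFKB2 products, was lowest, at 5.85 on the array labelled SREBP1 knockdown and 6.17 on the control array, a difference of -0.32. REL, the remaining Rel family gene and likewise picked out once its value was known, differed by -0.029, so that the higher signal held for 4 of the 5 subunit genes.

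Among IKK and upstream kinases, 6 of 13 were higher and 7 lower, and the median was -0.043, or -0.077 with the curve. MAP3K14, the kinase of the slower branch, was highest, at 6.51 log2 units on the array labelled SREBP1 knockdown and 6.20 on the control array, a difference of 0.31. It was the 1 kinase beyond 1.2-fold. IKBKB, the catalytic IKK subunit of the faster branch, was lowest at -0.20. Other genes of the slower MAP3K14 branch, picked out with their values known, were closer to 0 than MAP3K14. The IKK subunit gene CHUK differed by 0.043, the adaptor gene TRAF3 by 0.042 and the ubiquitin ligase gene BIRC2 by 0.011. Adaptors and ubiquitin ligases were 8 higher, 12 lower and 2 equal of 22, with a median of -0.016. That split was 6 higher and 16 lower with the median difference subtracted, at a median of -0.028, and 5 higher and 17 lower with the curve, at -0.036. The change with the median difference subtracted came only from genes at 0 or less than 0.012 above it, such as BIRC2. The adaptors and ligases ran from -0.29 for TANK, an adaptor of TBK1, to 0.14 for XIAP, an inhibitor of apoptosis.

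Of the negative regulators, 6 of 15 were higher, 8 lower and 1 equal, and the median was -0.010, which was -0.022 with the median difference subtracted and -0.062 with the curve. TNIP3, a partner of TNFAIP3, was highest, at 5.14 log2 units on the array labelled SREBP1 knockdown and 4.76 on the control array, a difference of 0.38. N4BP1, a suppressor of NF-kB signalling, was lowest at -0.22. The median of the 14 receptor genes was 0.010, and it turned to -0.0019 with the median of all genes subtracted and to -0.0054 with the curve subtracted. TLR4, the receptor of bacterial lipopolysaccharide, read 4.46 on the array labelled SREBP1 knockdown and 5.12 on the control array, a difference of -0.66 or 1.58-fold lower. LTBR, the lymphotoxin-beta receptor, which signals through MAP3K14, was highest of the receptors at 0.13.

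The other transcriptional targets spread more widely than the members. Of 28 above the floor, 13 were higher, 14 lower and 1 equal, with a median of -0.036 (-0.053 with the curve), and 6 were higher and 7 lower by 1.2-fold or more, where the shares over all genes were 6.59% and 6.54%. CCL2, which draws monocytes, read 3.11 on the array labelled SREBP1 knockdown, under the floor, and 4.46 on the control array, which makes it at least 2.38-fold lower. PLAUR, the urokinase receptor, was highest, at 8.37 on the array labelled SREBP1 knockdown and 7.84 on the control array, a difference of 0.53 or 1.44-fold higher. The targets beyond 1.2-fold thus lay on both sides of 0.

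**Figure D3:**
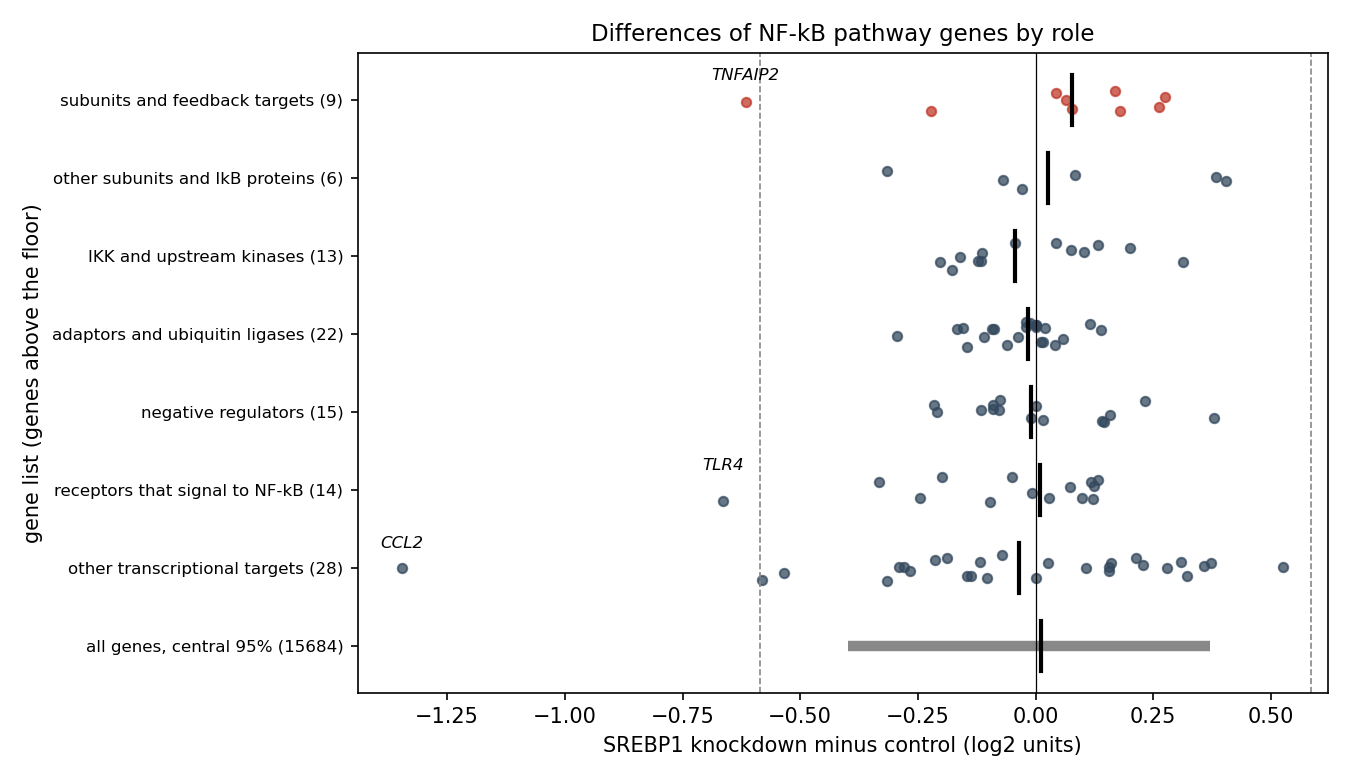
Differences (SREBP1 knockdown minus control, log2 units, horizontal axis) of the genes above the floor in each list (rows, with the number of genes in brackets); each point is a gene, vertical bars are list medians, the grey band is the central 95% of all 15684 genes, from -0.40 to 0.37, and dashed lines mark 1.5-fold. The medians lie between -0.043 for the kinases and 0.077 for the subunits and feedback targets, and TNFAIP2, TLR4 and CCL2 are the points beyond 1.5-fold.

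Markers of other cells that use NF-kB were read beside these values. Of 15 measured leukocyte markers 10 were above the floor, and their summed linear signal was 617 on the array labelled SREBP1 knockdown and 553 on the control array, with a median difference of 0.13 log2 units and none beyond 1.5-fold. CD68, a lysosomal gene high in macrophages, made up most of that sum, and the 9 others summed to 155 on the array labelled SREBP1 knockdown and 153 on the control array. PTPRC, the pan-leukocyte gene, and the B-cell gene MS4A1 were under the floor on both arrays. The B-cell gene CD79A, at 4.21 log2 units on the array labelled SREBP1 knockdown and 4.06 on the control array, was above it. So was the T-cell gene CD3E, at 3.66 and 3.53. By sign, 7 of the 10 leukocyte markers above the floor were higher and 3 lower. The lower ones were CD14 at -0.36, CSF1R at -0.24 and NKG7 at -0.055, and CD14 was the 1 leukocyte marker beyond 1.2-fold. Of 13 fibroblast and endothelial markers 7 were above the floor, 4 of them higher, 2 lower and 1 equal. Their summed linear signal was 141 on the array labelled SREBP1 knockdown and 142 on the control array. Of the endothelial genes PECAM1 was under the floor on both arrays. CLDN5, at 5.40 log2 units on the array labelled SREBP1 knockdown and 5.31 on the control array, was above it, as were KDR, VWF and CDH5. Of the fibroblast genes COL1A1, COL1A2 and PDGFRB were above the floor. PDGFRB, at 4.19 log2 units on the array labelled SREBP1 knockdown and 4.50 on the control array, was the 1 marker of this list beyond 1.2-fold. The part of these markers in the differences of the NF-kB genes was not tested.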

How the data were processed

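Per the submitters' processing notes, the authors deposited log2 signals made by RMA in Affymetrix Expression Console, 1 value per probe set and array. The method corrects background, normalizes the arrays to each other and summarises the probes of a set, which leaves relative values whose fold changes are commonly compressed. Not given in the sources used here were tool versions and the probe sets' build. Of 70523 probe sets, 23781 named 1 gene, 1543 several and 45199 none here. Symbols were brought up to date with RefSeq (GRCh38.p14), and the probe set with the highest mean stood for a gene with several. For the floor, 366 olfactory receptor genes were ranked by mean signal and their 95th percentile was taken, and a gene passed with either array above it. Depth does not apply to arrays, and their number, 1 per group, limits the precision. Percentiles and SDs among the 500 genes nearest in mean signal are descriptions, not tests. The members and gene lists were chosen with earlier results of these data known. Outside the members, the genes named were the label check, markers, the highest and lowest of each list and those beyond 1.5-fold, besides NFKBIE, REL, CSF1, some of the markers and genes of the MAP3K14 branch, which were picked out with their values known. The counts at 1.5-fold and the percentiles among neighbours were checked on simulated data. The planted differences there were 1 log2 unit, larger than that of any member. The floor, the probe set rule, the lowess curve and the motif search were not checked in this way. Alternatives subtracted the median difference or a lowess curve (fraction 0.3), changed the floor, the probe set rule, the gene set, the fold threshold or the motif strand. The work used Python 3.11.15 with pandas 2.3.3, numpy 2.4.6, matplotlib 3.10.9 and statsmodels 0.14.6.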

Additional observations from a re-analysis of the deposited data

How the results depend on the processing

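With 1 array per group, no setting here measures the spread between cultures, and a value under the floor, such as that of CCL2, gives only a bound. The count of members at least 1.2-fold higher was 0 instead of 1 with the median difference subtracted, and the count at least 1.2-fold lower was 2 instead of 1 with the lowess curve subtracted. At 2-fold, 0 members were higher, 0 were lower and 1 pathway gene was lower, while 3 pathway genes, not 2, were at least 1.5-fold lower with the median difference or the curve subtracted. The members' median of 0.077 was 0.065 with the median difference subtracted and 0.061 with the curve. With the curve, ICAM1 turned to -0.015 and the median of all genes to -0.0037. On the plus strand only, the kappaB consensus was found in windows of 2 members, not 5, its relaxed form in those of 5, not 7, and GGNNNTTCC in those of 6, not 8. Of the other alternatives run (probe sets averaged or of several genes added, no floor, a higher floor, a floor on the mean, protein-coding genes only), none changed a member's value or a count of members. None of them could have done so, and they say nothing on how stable the members' values are. Each measured member had 1 probe set of its own and 0 shared with other genes. The lowest member signal, 5.64 log2 units for TNFAIP3 on the control array, was well above each floor, and all 9 are protein-coding. No paired analysis was possible because each group has 1 array.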
